A study of Rattus norvegicus with 12 samples.

Results

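The genes described here encode numbered F-box proteins (Fbxo, Fbxl and Fbxw) and tripartite motif proteins (Trim), the families that supply many of the substrate-choosing parts of ubiquitin ligases. The rule that picks them reads the symbol only: every gene whose symbol on the array platform began with Fbxo, Fbxl, Fbxw or Trim followed by a number, except Fbxo32, which was left out by the same rule. Each gene was read through the brightest of its probe sets that carried a single symbol. The rule found 91 of the 14506 measured genes, of which 28 were Fbxo, 13 Fbxl, 7 Fbxw and 43 Trim genes. Only Fbxl20 had more than 1 such probe set. In 10 members even the highest of the 4 group means of log2 intensity lay under 6.87, the level used here to call a gene dim: Fbxl13, Fbxo15, Fbxo24, Fbxo39, Fbxo43, Trim9, Trim14, Trim42, Trim69 and Trim80.

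The RNA came from primary heart muscle cells of newborn Sprague Dawley rats, cultures stated to hold over 90% cardiac myocytes, grown with bromodeoxyuridine against fibroblasts. All cells were transfected with siRNA, either a non-silencing one (NS) or one against p300 (p300kd), the histone acetyltransferase encoded by Ep300, and all were kept for 48 h without serum. Doxorubicin (Dox), an anthracycline that poisons topoisomerase II and damages the heart, was then given at 1 µM for 0 or 8 h. The 4 groups, NS at 0 h, NS at 8 h, p300kd at 0 h and p300kd at 8 h, had 3 arrays each. The study describes 3 experiments, and the arrays of each group are numbered 1 to 3; arrays of one number are taken here to be of one experiment, since they deviated together. No group was cultured for 8 h without drug, so the drug and the time in culture cannot be told apart, and "with Dox" below means 8 h against 0 h.

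An F-box protein binds Skp1 through its F-box and a substrate through another domain, and so brings the substrate to the cullin Cul1 and the RING protein Rbx1; the whole is called an SCF ligase and is switched on by attaching Nedd8 to the cullin. Most TRIM proteins, but not all, carry their own RING finger, followed by B-boxes and a coiled coil. The C-terminal domain (NHL repeats, PRY-SPRY or a bromodomain, for example) decides what such a protein binds. In striated muscle the Trim63, Trim54 and Trim55 proteins (MuRF1, MuRF3 and MuRF2) sit on the sarcomere, and MuRF1 is a classic marker of muscle atrophy. Other members act in the cell cycle, iron sensing, gene silencing and antiviral signalling.

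The promoters of 5 members are shown because these genes had some of the largest falls (Fbxo5, Trim63, Fbxl22) and rises (Fbxw9, Fbxo48) with Dox. Each is the 250 bases before the gene's start in RefSeq's annotation of the rat assembly GRCr8, 5′ to 3′ on the gene's own strand. Fbxo5 lies at chr1:44607782-44608031 (minus strand), Trim63 at chr5:151816986-151817235 (plus), Fbxl22 at chr8:75971715-75971964 (minus), Fbxw9 at chr19:40002313-40002562 (minus) and Fbxo48 at chr14:95582243-95582492 (plus). Capitals mark matches, on either strand, to any of 10 motifs searched. These were the TATA box (TATAAA), the CCAAT box, the GC box (GGGCGG), the E2F site (TTTCCCGC, with TTTGGCGC as its other form) and the CHR element of cell cycle genes (TTTGAA). Also searched were the FOXO site (GTAAACA), the GATA site (AGATAA), the E-box (CACGTG) and the cyclic AMP response element or CRE (TGACGTCA). The last was a loose form of the MEF2 site of muscle genes (CTA, any 4 bases, then TAG).
Fbxo5: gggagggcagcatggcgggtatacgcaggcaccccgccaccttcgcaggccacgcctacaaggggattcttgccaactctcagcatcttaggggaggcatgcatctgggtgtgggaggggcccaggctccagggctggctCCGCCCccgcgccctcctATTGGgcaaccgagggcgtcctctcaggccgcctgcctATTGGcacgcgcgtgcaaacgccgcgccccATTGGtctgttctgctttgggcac
Trim63: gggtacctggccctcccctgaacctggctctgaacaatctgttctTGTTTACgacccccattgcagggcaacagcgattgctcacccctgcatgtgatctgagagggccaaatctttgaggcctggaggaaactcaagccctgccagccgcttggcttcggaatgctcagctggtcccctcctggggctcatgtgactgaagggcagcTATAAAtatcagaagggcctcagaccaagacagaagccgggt
Fbxl22: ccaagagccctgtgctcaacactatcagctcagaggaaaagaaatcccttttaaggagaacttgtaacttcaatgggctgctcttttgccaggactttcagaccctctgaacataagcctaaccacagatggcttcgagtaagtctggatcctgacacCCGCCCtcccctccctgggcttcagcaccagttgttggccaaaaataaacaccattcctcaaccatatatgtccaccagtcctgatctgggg
Fbxw9: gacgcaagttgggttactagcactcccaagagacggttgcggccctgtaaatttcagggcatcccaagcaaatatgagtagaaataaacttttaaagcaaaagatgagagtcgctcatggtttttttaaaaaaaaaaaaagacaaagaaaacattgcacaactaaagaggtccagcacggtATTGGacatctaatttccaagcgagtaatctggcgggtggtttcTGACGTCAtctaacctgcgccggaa
Fbxo48: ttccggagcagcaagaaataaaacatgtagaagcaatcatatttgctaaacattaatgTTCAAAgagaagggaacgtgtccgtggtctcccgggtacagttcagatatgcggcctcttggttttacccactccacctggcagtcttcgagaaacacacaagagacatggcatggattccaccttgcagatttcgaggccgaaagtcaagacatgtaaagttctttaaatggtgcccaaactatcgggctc

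In the Fbxo5 window CCAAT was found 3 times on the opposite strand, at -92, -54 and -24 from the gene's start, with 1 GC box at -110. Trim63 had a TATA box at -42 and a FOXO match at -205, while Fbxl22 had a GC box at -92. The Fbxw9 window held a full CRE at -25 and a CCAAT at -69, and that of Fbxo48 only a CHR match at -192. The FOXO letters occurred in 2.57% of the promoters of the 11950 measured genes with a listed promoter and in 2 of the 75 members with one, Trim63 and Trim11. The CRE occurred in 2.28% of all and in Fbxw9 and Trim26 among the members. CCAAT was common, in 35.6% of all and 30.7% of the members, and the TATA box was in 11.2% of all and 4.0% of the members. The GC box was in 47.3% of all and 50.7% of the members. These matches describe the letters only.

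With Dox more F-box and TRIM genes passed the test as lower than as higher. In NS cells 29 members fell and 8 rose, and in p300kd cells 30 fell and 9 rose (limma, Benjamini-Hochberg adjusted p under 0.05 over all genes). Of all genes, 27.5% passed in NS cells (16.4% lower, 11.1% higher) and 31.4% in p300kd cells (17.5% lower, 13.9% higher). The members' shares in NS cells were 31.9% and 8.79%. The median log2 difference of the members was -0.08 in NS and -0.05 in p300kd cells, against 0.04 in both for all genes; with each array centred on its median these members' medians turned positive, 0.02 and 0.05, against 0.14 and 0.15 for all genes. The median member differed by -0.03, -0.08 and -0.14 in experiments 1, 2 and 3 of the NS cells. With the experiment as a block, 14 members rose and 35 fell in NS cells (21.6% and 21.9% of all genes) and 15 rose and 35 fell in p300kd cells (22.9% and 22.8%). With each array centred on its median, 15 rose and 25 fell in NS cells (26.2% and 12.6% of all genes) and 20 rose and 26 fell in p300kd cells (29.9% and 13.7%). Without 1 of the experiments the counts in NS cells ranged from 3 to 5 for rises and from 17 to 29 for falls, the latter with 29 without experiment 1, 17 without experiment 2 and 18 without experiment 3. In p300kd cells they ranged from 4 to 8 and from 21 to 28. The shares of all genes in the fits without 1 experiment are not given here. These ranges therefore do not set the members against all genes.

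Among the families, 17 of 43 Trim genes fell and 3 rose in NS cells. Of the 28 Fbxo genes 8 fell and 3 rose, of the 13 Fbxl genes 3 fell and 1 rose, and of the 7 Fbxw genes 1 fell and 1 rose. The Trim median was -0.14 and the F-box median -0.06 on the log2 scale, and with centring the Trim median was -0.03 and the F-box median turned to 0.04. In p300kd cells the counts differed by 1 more Fbxl fall and 1 more Trim rise. The 0 and 8 h arrays did not overlap in 52 members in NS cells, 57.1% of them, against 41.3% of all genes, and in 47 in p300kd cells, 51.6% against 43.2%.

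**Figure D1:**
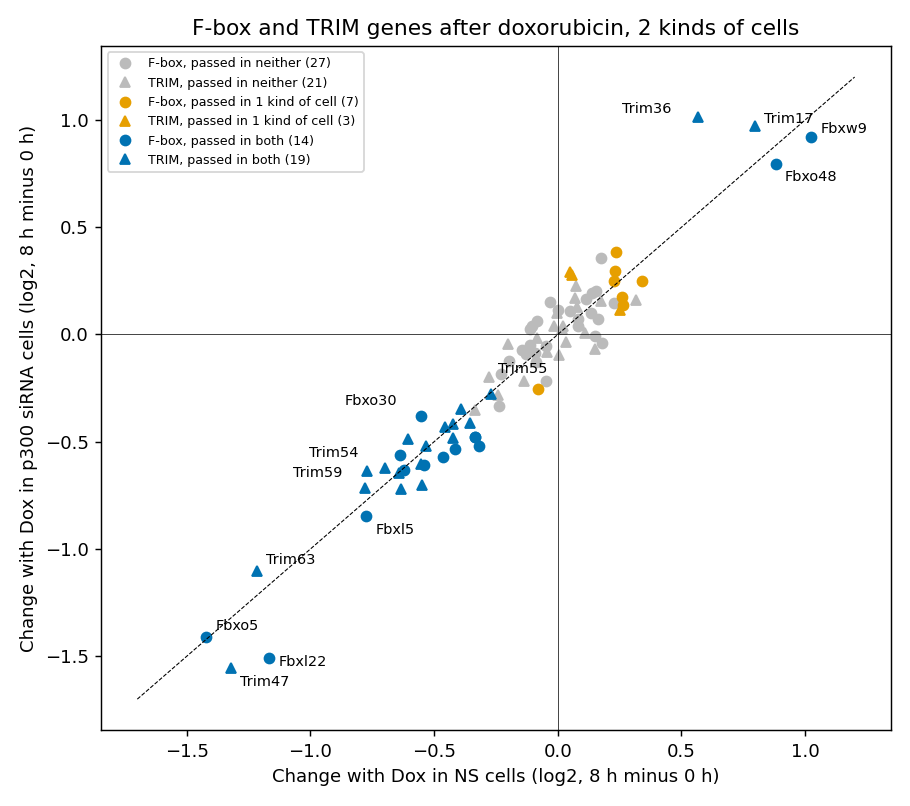
Each point is 1 of the 91 members, placed by its log2 difference with Dox (8 h minus 0 h) in NS cells on the horizontal axis and in p300kd cells on the vertical axis; circles and triangles tell F-box from Trim genes, and the colour tells members that passed the test in both, 1 or neither of the cell kinds. Most members lie near the diagonal, with Fbxo5, Trim47, Fbxl22 and Trim63 at the low end and Fbxw9, Trim36, Fbxo48 and Trim17 at the high end.

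Of the 3 sarcomeric MuRF ligases, Trim63 and Trim54 fell with Dox and Trim55 did not pass the test. Log2 intensity of Trim63 was 9.90, 9.82 and 10.39 in NS cells at 0 h and 8.67, 8.61 and 9.19 at 8 h. In p300kd cells it was 9.66, 9.84 and 10.15 at 0 h and 8.29, 8.95 and 9.10 at 8 h. Every 8 h array lay under every 0 h array, and in NS cells the 3 experiments differed by -1.23, -1.21 and -1.20. Trim63 thus fell 2.32-fold in NS cells (log2 difference -1.22, SE 0.227, adjusted p = 0.00162) and 2.15-fold in p300kd cells (adjusted p = 0.00258).

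Trim54, which binds the sarcomere and microtubules, read 9.73, 9.91 and 10.21 in NS cells at 0 h and 9.04, 9.12 and 9.59 at 8 h. In p300kd cells it read 9.46, 9.54 and 9.76 at 0 h and 8.79, 9.02 and 9.07 at 8 h. The groups did not overlap in either cell kind. Trim54 fell by 0.70 in NS cells (SE 0.158, adjusted p = 0.00545) and by 0.62 in p300kd cells (adjusted p = 0.00915). Without experiment 2 the adjusted p was 0.118 and 0.0984.

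Trim55 was the brightest of the MuRF probe sets but had the smallest difference. Its log2 intensity ran from 11.89 to 12.03 in NS cells at 0 h and was 11.50, 11.89 and 11.71 at 8 h, so that the highest 8 h array met the lowest 0 h array. The log2 difference was -0.28 (SE 0.112, adjusted p = 0.0865) in NS cells and -0.20 (adjusted p = 0.204) in p300kd cells. In the blocked fit Trim55 fell in both (adjusted p = 8.46e-04 and 0.00816).

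Of the other members tied to heart and skeletal muscle, 5 of 7 measured fell in NS cells and none rose. All lists in this report were chosen with earlier results of these data known, so their counts and medians are descriptions only. Fbxo31 and Trim32 are also counted in another list. Fbxl22, a heart-enriched F-box protein of the Z-disc, read 9.78, 9.87 and 9.91 in NS cells at 0 h and 8.64, 8.50 and 8.93 at 8 h. The p300kd arrays read 9.87, 10.03 and 10.37 at 0 h and 8.20, 8.81 and 8.73 at 8 h. All 6 treated arrays lay under the 6 untreated ones. The fall was 1.17 on the log2 scale in NS cells (SE 0.169, adjusted p = 2.73e-04) and 2.85-fold in p300kd cells (log2 difference -1.51, adjusted p = 3.22e-05).

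Fbxo21 and Fbxo30, which take part in muscle atrophy under the names SMART and MUSA1, and Trim32, whose mutation causes a limb-girdle muscular dystrophy, also fell. Fbxo21 read 10.27, 10.38 and 10.54 in NS cells at 0 h and 9.66, 9.65 and 10.02 at 8 h (log2 difference -0.62, adjusted p = 0.00466). Trim32 fell by 0.53 in NS cells (adjusted p = 0.00417). Without experiment 2 these calls were lost, with an adjusted p of 0.108 for Fbxo21 (0.0599 in p300kd cells) and 0.122 for Trim32. Fbxo30 fell by 0.55 in NS cells (adjusted p = 0.00676, and 0.098 without experiment 3) and by 0.38 in p300kd cells (adjusted p = 0.0409). That call in p300kd cells was lost without any 1 of the 3 experiments (adjusted p up to 0.169).

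Fbxo31, which marks cyclin D1 for destruction after DNA damage, fell by 0.46 in NS cells (adjusted p = 0.00112), and in p300kd cells it fell by 0.57. Trim72, the membrane repair protein MG53, read 10.57, 10.75 and 10.68 in NS cells at 0 h and 10.55, 10.66 and 10.88 at 8 h. These groups overlapped, and the log2 difference of Trim72 was 0.03 (adjusted p = 0.881). Fbxo25 differed by -0.11 in NS and -0.05 in p300kd cells and did not pass the test in either.

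Of 10 cardiac myocyte markers none passed in NS cells, and their summed intensity was 107000 to 111000 at 0 h and 108000 to 117000 at 8 h. Of 8 smooth muscle and pericyte markers 3 fell, with sums of 36400 to 45800 and 35200 to 43600. Of 7 endothelial markers 2 fell, with sums of 1910 to 1990 at 0 h and 1530 to 1700 at 8 h. Of 10 fibroblast markers 1 rose and 1 fell, with sums of 42100 to 46700 and 40900 to 45500. Of 8 macrophage and leukocyte markers 1 fell, with sums of 8540 to 10500 and 8200 to 10800. The part of these other cells in the members' differences was not tested. In such bulk RNA, fewer cells of a type and less RNA per cell cannot be told apart.

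**Figure D2:**
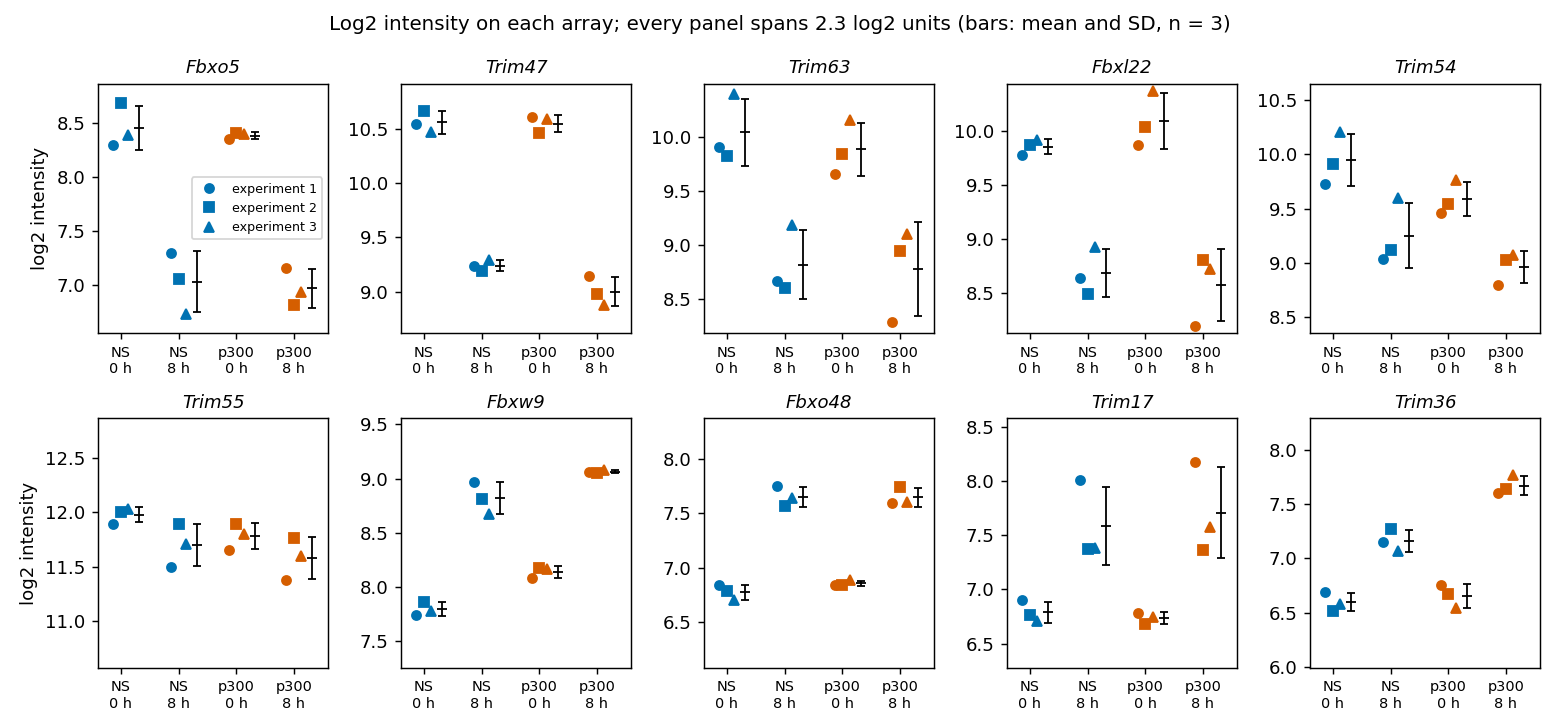
Log2 intensity on every array (vertical axis) for members with large differences and for the MuRF gene Trim55, which did not pass the test. Arrays are grouped as NS at 0 and 8 h and p300kd at 0 and 8 h (3 each), with bars at the mean and SD of each group. The 8 h arrays of Trim63, Fbxl22, Fbxo5 and Trim47 lie under all of their 0 h arrays, and those of Fbxw9, Fbxo48, Trim17 and Trim36 above.

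Among 8 measured F-box genes of the cell cycle and DNA damage response, 4 fell in NS cells and none rose, with a median log2 difference of -0.27. Fbxo5 encodes EMI1, the inhibitor that holds back the anaphase-promoting complex until mitosis. It read 8.29, 8.68 and 8.38 in NS cells at 0 h and 7.30, 7.06 and 6.74 at 8 h, with no overlap. With p300 siRNA the values were 8.35, 8.41 and 8.39 at 0 h and 7.16, 6.82 and 6.94 at 8 h. Fbxo5 had the largest fall of any member in NS cells, 2.68-fold (log2 difference -1.42, SE 0.140, adjusted p = 1.56e-05), and fell by 1.41 in p300kd cells (adjusted p = 1.36e-05).

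The other falls in this group were Fbxo31, Fbxw8 and Fbxo6. Fbxw8, which works with the cullin Cul7, fell by 0.42 in NS cells and 0.53 in p300kd cells; its adjusted p in NS cells was 0.052 without experiment 2. Fbxo6, which recognises N-glycans on misfolded proteins, fell by 0.33 in NS and 0.48 in p300kd cells; in NS cells its adjusted p was 0.0598 to 0.0883 when experiment 2 or 3 was left out. Among F-box genes named otherwise and so outside the rule, Ccnf (cyclin F) fell by 2.27, Btrc (beta-TrCP) by 0.97 and Kdm2a by 0.78 in NS cells, while Skp2 rose by 0.23.

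Fbxl5, the iron-binding F-box protein that lets iron-replete cells destroy IRP2, was the only one measured of the clock and iron list. It read 9.29, 9.40 and 9.40 in NS cells at 0 h and 8.37, 8.84 and 8.54 at 8 h, and the groups were apart. Fbxl5 fell by 0.77 in NS cells (adjusted p = 3.35e-04), and in p300kd cells it fell by 0.84. Neither of the mitochondrial F-box genes passed the test: Fbxo7, a Parkinson disease gene, differed by -0.09 and Fbxl4 by -0.11 in NS cells.

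Trim47, a RING-bearing TRIM protein, had the smallest adjusted p of the members. It read 10.55, 10.67 and 10.47 in NS cells at 0 h and 9.24, 9.19 and 9.29 at 8 h. In p300kd cells it read 10.61, 10.46 and 10.59 at 0 h and 9.14, 8.98 and 8.88 at 8 h. The arrays of a group differed by far less than the groups: Trim47 fell by 1.32 in NS cells (SE 0.0907, adjusted p = 1.2e-06) and by 1.55 in p300kd cells (adjusted p = 3.4e-07).

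The NHL-repeat TRIM genes fell as a group except for Trim71, with 3 of 4 passing in NS cells and a median log2 difference of -0.54. Trim3 read 10.16, 10.04 and 10.03 in NS cells at 0 h and 9.55, 9.33 and 9.42 at 8 h, and fell by 0.64 in both cell kinds. Trim2, best known in neurons, read 8.91, 8.72 and 9.17 and then 8.39, 8.47 and 8.30. It fell by 0.55 in NS cells (adjusted p = 0.00217, and 0.0581 without experiment 3) and by 0.70 in p300kd cells. Trim32, described above, was the third of them.

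Trim28 (KAP1), the corepressor that zinc finger proteins with a KRAB domain use to silence retroelements, belongs to the TIF1 genes. It read 12.01, 11.97 and 11.90 in NS cells at 0 h and 11.62, 11.52 and 11.47 at 8 h. The difference was modest but well beyond the spread of the arrays: it fell by 0.43 in NS cells (adjusted p = 4.15e-04), and in p300kd cells it fell by 0.48 (adjusted p = 1.37e-04). Trim24 (TIF1-alpha) differed by -0.24 in NS and -0.28 in p300kd cells, with an adjusted p of 0.117 and 0.0616, and of 0.0122 and 0.00391 with the experiment as a block. Trim66 differed by 0.02 and 0.04 and did not pass.

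Of 7 measured TRIM genes of innate immunity 4 fell in NS cells, Trim25, Trim65, Trim26 and Trim8. Trim25, which attaches ubiquitin in the RIG-I pathway, read 10.95, 11.32 and 11.39 in NS cells at 0 h and 10.62, 10.76 and 10.62 at 8 h. It fell by 0.55 in NS and 0.60 in p300kd cells, but its adjusted p in NS cells was 0.0882 to 0.144 when experiment 2 or 3 was left out, and that in p300kd cells 0.0636 without experiment 2. Trim65, which acts on MDA5, fell by 0.64 in NS and 0.72 in p300kd cells with no overlap of the arrays. Trim26 fell by 0.39 and Trim8 by 0.27 in NS cells, and both calls were lost without experiment 2 or 3 (adjusted p up to 0.0817 for Trim26 and 0.17 for Trim8).

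Trim21, the cytosolic antibody receptor, ran the other way. It read 9.20, 9.66 and 9.55 in NS cells at 0 h and 9.54, 10.27 and 9.56 at 8 h, a log2 difference of 0.32 that did not pass (adjusted p = 0.359) but did in the blocked fit (adjusted p = 0.0201). Trim27 differed by -0.20 in NS cells (adjusted p = 0.103, and 0.0452 in the blocked fit), and Trim14 by -0.04 without passing. Among 20 measured interferon-response genes 3 rose and 1 fell in NS cells, with a median log2 difference of 0.22. That median was 0.291, 0.401 and -0.0036 in experiments 1, 2 and 3. In p300kd cells 2 rose and 1 fell, with a median of -0.12. None of the 20 passed the test of the difference between the cell kinds.

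The transmembrane TRIM genes Trim59 and Trim13, which sit in the endoplasmic reticulum membrane, both fell. Trim59 read 8.55, 8.47 and 8.31 in NS cells at 0 h and 7.51, 7.96 and 7.52 at 8 h (log2 difference -0.78, adjusted p = 9.97e-04). Trim13 fell by 0.42 in both cell kinds, and lost the call in both without experiment 3 (adjusted p up to 0.242 in NS cells). Trim35 read 11.03, 11.17 and 11.30 in NS cells at 0 h and 10.40, 10.34 and 10.44 at 8 h, and fell by 0.77 there and by 0.64 in p300kd cells. Fbxo28 fell by 0.64 and 0.56, and Fbxo42, which binds p53, by 0.54 and 0.61. The remaining falls in both cell kinds, from -0.61 to -0.32 in NS cells, were Trim50, Trim11, Trim16, Fbxl7 and Fbxo46. Of these, Trim50, Trim16, Fbxl7 and Fbxo46 lost their calls in NS cells without experiment 2 or without experiment 3 (adjusted p up to 0.223, 0.164, 0.204 and 0.168), Trim16 also without experiment 1, and Trim11 lost its call in p300kd cells without experiment 3 (0.0601). In p300kd cells Trim8, Trim16, Trim26, Trim50 and Fbxl7 also lost theirs without at least 1 experiment (adjusted p up to 0.223).

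The rises were fewer, and 4 were found in both cell kinds: Fbxw9, Fbxo48, Trim17 and Trim36. Fbxw9, a WD40-repeat F-box protein, read 7.75, 7.87 and 7.78 in NS cells at 0 h and 8.97, 8.82 and 8.67 at 8 h. The p300kd arrays read 8.08, 8.17 and 8.17 at 0 h and 9.06, 9.05 and 9.08 at 8 h. No array overlapped, and Fbxw9 rose by 1.02 in NS cells (SE 0.0831, adjusted p = 4.06e-06) and by 0.92 in p300kd cells (adjusted p = 6.77e-06).

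Fbxo48 read 6.84, 6.78 and 6.70 in NS cells at 0 h and 7.75, 7.57 and 7.64 at 8 h. With p300 siRNA the values were 6.84, 6.84 and 6.88 at 0 h and 7.59, 7.74 and 7.60 at 8 h. The untreated arrays were around the level used to call a gene dim and the treated ones clearly above them. Fbxo48 rose by 0.88 in NS cells (SE 0.0724, adjusted p = 4.24e-06) and by 0.79 in p300kd cells (adjusted p = 7.45e-06).

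Trim17, a ligase that targets the survival protein MCL1, read 6.90, 6.76 and 6.71 in NS cells at 0 h and 8.00, 7.38 and 7.38 at 8 h. In p300kd cells it read 6.78, 6.68 and 6.75 at 0 h and 8.18, 7.37 and 7.58 at 8 h. Experiment 1 gave the highest treated array in both cell kinds. The 0 h means of both cell kinds lay under the level used to call a gene dim, which limits the size of the rise. Trim17 rose by 0.80 in NS cells (SE 0.192, adjusted p = 0.00792, and 0.0513 to 0.0643 without experiment 2 or 3) and by 0.97 in p300kd cells (adjusted p = 0.00197).

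Trim36, a microtubule-bound TRIM protein with a COS box, read 6.69, 6.52 and 6.58 in NS cells at 0 h and 7.15, 7.27 and 7.07 at 8 h. The p300kd arrays read 6.76, 6.68 and 6.54 at 0 h and 7.60, 7.64 and 7.77 at 8 h, the latter above every treated NS array. All untreated arrays lay under the level used to call a gene dim, which limits the size of the rise. Trim36 rose by 0.57 in NS cells (SE 0.0833, adjusted p = 3.04e-04) and by 1.02 in p300kd cells (adjusted p = 3.5e-06). It was the one COS-box gene of 4 to pass the test in NS cells.

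All 29 members that fell in NS cells also fell in p300kd cells, which is 96.7% of the 30 that fell there. The sharing of calls between the cell kinds, here and in the blocked fit, was not counted over all genes. It therefore does not set the members against all genes. The other one was Fbxl19, at -0.26 (adjusted p = 0.0367). Its call was lost without any 1 of the 3 experiments or some single arrays (adjusted p up to 0.256), and with centring. The 4 shared rises were 50.0% of the rises in NS cells and 44.4% of those in p300kd cells. Only in NS cells did Fbxo36 (0.34), Fbxo34 (0.26), Fbxl6 (0.26) and Trim29 (0.25) pass, and only in p300kd cells did Fbxo22 (0.38), Fbxo39 (0.30), Trim40 (0.29), Trim37 (0.28) and Fbxl17 (0.25). Each of these small changes lost its call without at least 1 experiment and without at least 1 single array (adjusted p up to 0.278), and none of them passed the test of the difference between the cell kinds. In the blocked fit 10 rises were shared, 71.4% of those in NS cells and 66.7% of those in p300kd cells, and Fbxo36, Fbxl6, Fbxo22, Fbxo39 and Fbxl17 were then among them. Of the falls, 32 were shared, 91.4% of the 35 in each cell kind. Neither comparison was passed by 48 members, whose log2 differences ran from -0.33 to 0.32 in NS cells and from -0.35 to 0.35 in p300kd cells. Among these, the blocked fit called Fbxw2 higher in both cell kinds (adjusted p = 0.0346 in NS and 2.46e-04 in p300kd cells) and Trim44, a TRIM protein without a RING finger, lower in both (0.00292 and 0.00177). It also called Fbxl12 (0.0498) higher and Fbxl8 (0.0242) and Fbxw11 (0.00652) lower in NS cells. In p300kd cells it called Fbxo2 (0.0427), Fbxo8 (0.0267) and Trim9 (0.0491) higher and Fbxl15 (0.0496) and Fbxo16 (0.00758) lower.

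**Figure D3:**
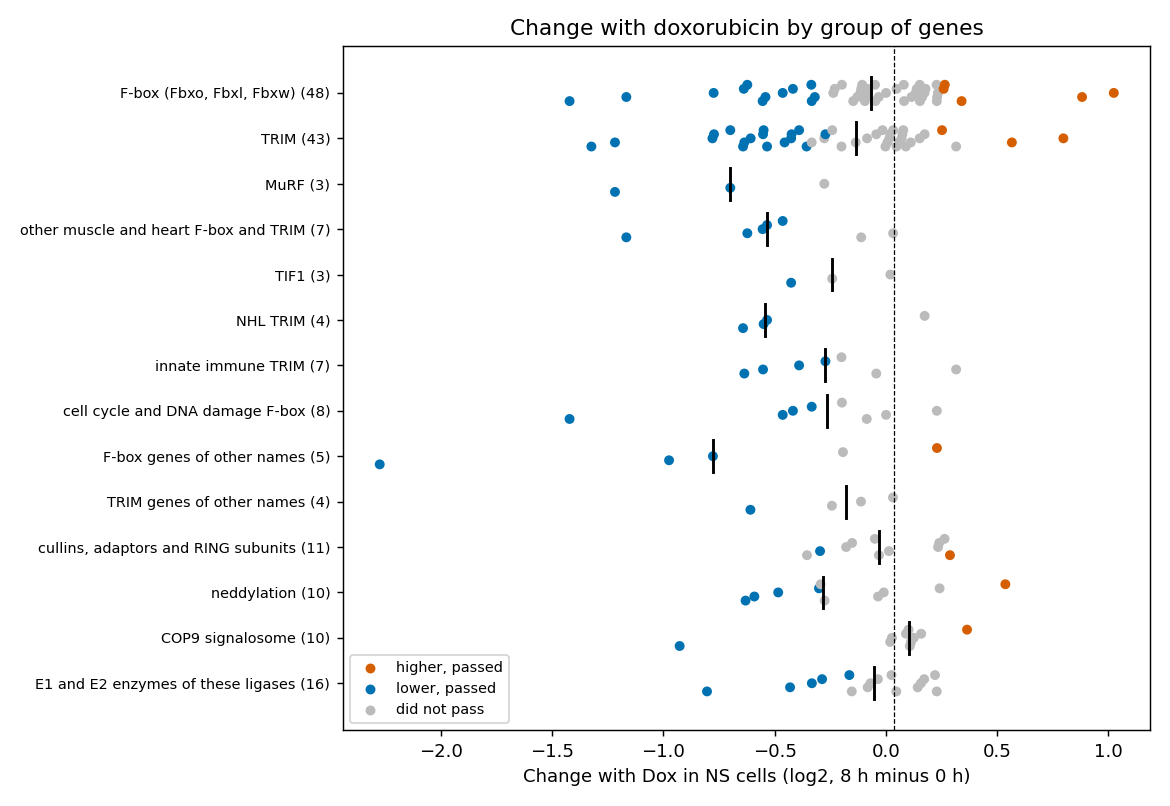
Log2 difference with Dox in NS cells (horizontal axis, 8 h minus 0 h) of each gene in both families, in lists of related members and in lists of other ubiquitin ligase genes, with the number measured in brackets. The lists were chosen with earlier results of these data known. Points are coloured by the test, black bars are list medians and the dashed line is the median of all genes (0.04); the MuRF, other muscle and NHL lists have medians of -0.70, -0.53 and -0.54.

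Knockdown of p300 was visible in its own RNA, which was lower at 0 h (log2 difference -0.95, adjusted p = 0.0404) and at 8 h (-0.92, adjusted p = 0.0271), and by 0.93 when both times were averaged (adjusted p = 0.00212). All 3 calls were lost without experiment 2 or 3; the averaged one then had an adjusted p of 0.168 to 0.348. No member passed the test between p300kd and NS cells at 0 h or at 8 h (limma with Benjamini-Hochberg adjustment), where 0.0207% and 0.0483% of all genes passed. At an unadjusted p under 0.05 there were 4 of the 91 members at 0 h and 9 at 8 h, against 1008 and 1155 of all 14506 genes. The arrays of both siRNA groups did not overlap in 7 members at 0 h (7.69%, against 13.0% of all genes) and in 14 at 8 h (15.4%, against 11.1%).

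Averaged over both times, 2 members were higher in p300kd cells, Fbxw9 and Trim36, and none was lower, where 0.227% and 1.02% of all genes were. Fbxw9 was higher by 0.29 (SE 0.0588, adjusted p = 0.033), with a positive difference in 6 of 6 within-experiment pairs, the 0 h arrays at 8.08 to 8.17 against 7.75 to 7.87. Trim36 was higher by 0.28 (SE 0.0589, adjusted p = 0.0379), with log2 differences of 0.06 at 0 h (adjusted p = 0.995) and 0.51 at 8 h (adjusted p = 0.0771). Both calls were lost without experiment 2 or 3, that of Trim36 also without experiment 1, and without most of the single arrays (adjusted p up to 0.568 for Fbxw9 and 0.515 for Trim36).

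With the experiment as a block, which the pairing of the arrays allows, 4 members were higher and 6 lower in p300kd cells over both times (3.23% and 6.29% of all genes). The lower ones were Trim54 (log2 difference -0.32, adjusted p = 0.00215), Trim2 (-0.28, 0.0198), Trim16 (-0.27, 0.00521), Trim50 (-0.26, 0.0201), Trim24 (-0.17, 0.0425) and Trim55 (-0.16, 0.0176). The higher ones were Trim36, Fbxw9, Fbxl6 (0.18, 0.0234) and Fbxl16 (0.17, 0.0344). At 0 h alone the blocked fit called 1 member higher, Fbxw9 (adjusted p = 0.0346), and 1 lower, Trim54 (adjusted p = 0.0224), where it called 0.696% and 1.99% of all genes. At 8 h it called Trim36 higher (adjusted p = 0.00687) and Trim16 lower (adjusted p = 0.0482), with 0.765% and 2.37% of all genes. Of these 4 calls, those of Fbxw9 (adjusted p 0.0686 to 0.352), Trim54 (0.0705 to 0.278) and Trim16 (0.0789 to 0.353) were lost whichever experiment was left out, and that of Trim36 without experiment 3 (0.187).

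Trim54 had the smallest adjusted p of the lower ones: at 0 h the p300kd arrays at 9.46, 9.54 and 9.76 stood beside NS arrays at 9.73, 9.91 and 10.21, and the difference was negative in 6 of 6 within-experiment pairs. Without the block its adjusted p over both times was 0.218, and for the other 5 lower members 0.113 to 0.438. Trim63, by contrast, differed by -0.10 over both times (adjusted p = 0.875, and 0.509 with the block). Each of the 10 blocked calls was lost when at least 1 experiment was left out. Without experiment 3 only that of Trim16 remained (adjusted p = 0.0419), and Trim54 stood at 0.0946, Fbxw9 at 0.138 and Trim36 at 0.114. Without experiment 2 the values included 0.0905 for Trim16, 0.0569 for Trim2, 0.115 for Trim50, 0.211 for Trim24, 0.144 for Fbxl6 and 0.178 for Fbxl16. Without experiment 1 they were 0.0764 for Trim2, 0.0541 for Trim24, 0.0786 for Trim55, 0.086 for Fbxl6 and 0.137 for Fbxl16.

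Some markers of other cells differed between p300kd and NS cells when both times were averaged. Without the block, no marker of the lists below passed at 0 h or at 8 h alone. Fits of the markers without 1 of the experiments are not given here. All the macrophage and leukocyte markers measured, 8 in number, had a median log2 difference of -0.34 over both times; 2 passed, Csf1r (-0.46) and Ptprc (-0.40), and 5 passed with the block. Their summed intensity was 8540 to 10500 in NS and 5740 to 8920 in p300kd cells at 0 h. The 10 fibroblast markers had a median of -0.15, with none called and 5 lower with the block, and sums of 42100 to 46700 and 36100 to 43900 at 0 h. The median of the 10 myocyte markers was -0.02. The 8 smooth muscle and pericyte markers had a median of -0.008. Of them 1 was lower, and with the block 2 were lower and 1 higher. The 7 endothelial markers had a median of -0.11, with none called and 1 lower with the block. The part of these cells in the members' siRNA differences was not tested.

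**Figure D4:**
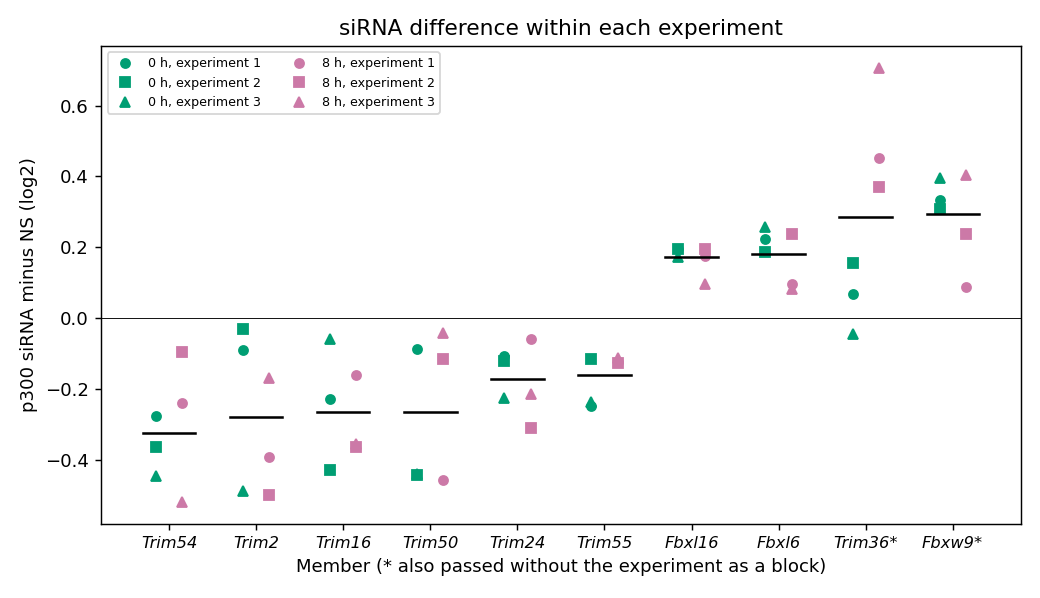
Log2 difference between p300kd and NS cells within each experiment (vertical axis) at 0 and 8 h for the members that passed with or without the experiment as a block; each point is 1 experiment and each bar the difference averaged over both times. The points of Trim54 lie under 0 and those of Fbxw9 above 0 at both times, and those of Trim36 lie above 0 at 8 h and on both sides of 0 at 0 h.

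No member passed the test for a different response to Dox in p300kd and NS cells, with or without the block (limma interaction, 0.0% of all genes called in both fits). At an unadjusted p under 0.05 there was 1 member, Trim36, and 1.57% of all genes. Trim36 rose by 0.45 more in p300kd than in NS cells on the log2 scale (SE 0.118, unadjusted p = 0.00226, adjusted p = 1.0, and 0.989 with the block). The next smallest p-values were those of Trim40 (0.24), Trim47 (-0.23), Fbxo46 (-0.20) and Fbxo43 (0.18), given as log2 interaction estimates. The median SE of a difference of 2 groups was 0.0951 over all genes, and that of an interaction is larger (for Fbxl22 0.239, against 0.169 with Dox in NS cells). Over all genes the interaction estimates ran from -0.86 to 0.61 and none passed. A small difference in response could thus not be detected, and larger ones could also be missed.

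Genes of the partners of these ligases passed the test in both directions with Dox in NS cells. Of 11 measured cullins, RING and adaptor subunits, Skp1, the adaptor to which F-box proteins bind, rose by 0.29 and Cul3 fell by 0.30, and with the experiment as a block 4 rose and 3 fell. Of 10 genes of the Nedd8 pathway, 1 rose and 4 fell: Nedd8 itself rose by 0.54, while Senp8 (-0.63) and Nae1 (-0.59), its processing enzyme and a subunit of its activating enzyme, and Dcun1d3 (-0.48) and Ube2f (-0.30) fell. Of the 10 subunits of the COP9 signalosome, which removes Nedd8 from cullins, Cops9 rose by 0.36 and Cops7b fell by 0.93. Of 16 ubiquitin-activating and conjugating enzymes none rose and 5 fell, Ube2g2 (-0.80), Ube2j1 (-0.43), Ube2g1 (-0.33), Cdc34 (-0.29) and Ube2d3 (-0.16). Cdc34 is the conjugating enzyme classically paired with SCF ligases. Their median log2 differences were -0.03 for the cullin list, -0.28 for the Nedd8 pathway, 0.11 for the signalosome and -0.05 for the enzymes; with centring the cullin list and the enzymes turned to 0.07 and 0.05.

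The members' gene length and promoters were set beside the Dox difference as a description. Across the 91 members Spearman's rho of genomic length with the log2 difference in NS cells was -0.04, against -0.12 over the 14474 genes with a length. The median length was 16940 bases for the members that fell, 16280 for those that rose and 23970 for the others. Promoter CpG count, over the 75 members with a listed promoter, had a rho of -0.22 in NS cells, against -0.10 over 11950 genes. In p300kd cells the values were closer, -0.14 and -0.11. The CCAAT box stood in 34.6% of the promoters of members that fell in NS cells, Fbxo5 among them. It stood in 30.2% of those of members that did not pass, in 1 of 6 of those of members that rose, and in 35.6% over the 11950 genes. All genes here share the same 12 arrays, so these points are not independent.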

How the data were processed

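The 12 Affymetrix arrays were summarised with RMA in Expression Console 1.1, per the submitters' processing notes; the deposited values are intensity per probe set on a linear scale (8.05 to 25315), whose log2 was taken here. Of 29214 probe sets, 15310 carried 1 symbol, 323 several and 13581 none in the platform annotation. The brightest single-symbol probe set of each of 14506 genes entered limma 3.58.1 (R 4.3.3), a model of the 4 group means with an intensity trend, two-sided, adjusted over all genes by Benjamini-Hochberg with a threshold of 0.05. The series' design text gives 3 experiments, and the sample titles number the arrays 1 to 3. Same-numbered arrays deviated together (18 pairs, lowest r 0.172, median 0.504), so the number was taken to mark the experiment, and a fit with it as a block is given where it changed a call or moved a count by over 1.5 times.

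Array medians over genes ran from 8.48 to 8.62. The fits were tested on simulated data. The members and lists were chosen with earlier results of these data known. Named were the Ep300 gene, the members of the lists, up to 12 members per direction with the largest change, every member past an siRNA test or the 5 smallest p, and up to 4 passing genes per direction of each list of other genes. The alternatives were the block, a random block, centring, quantile normalisation, an added constant, a filter on dim genes, only the groups compared, and leaving out arrays or experiments. Their number limits the precision. Promoters and gene lengths are RefSeq's (GRCr8), matched by the Entrez gene ID of the platform annotation. A length was found for all 91 members and a promoter for 75.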

Additional observations from a re-analysis of the deposited data

How the results depend on the processing

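No called gene reversed its direction under any alternative, but the members' median with Dox turned positive with centring (0.02 in NS and 0.05 in p300kd cells); the members whose sign centring turned, 11 in NS and 13 in p300kd cells, were not called. Of the 37 calls with Dox in NS cells 17 held under every alternative, and 22 of 39 in p300kd cells. Rises in NS cells (8) numbered 14 with the replicate block, 5 with only the compared groups fitted and 15 with centring. Without 1 replicate or array they numbered 3 to 9. Falls in NS cells (29) numbered 35 with the replicate block and 17 to 30 without 1 replicate or array. Rises in p300kd cells (9) numbered 15 with the replicate block, 14 with the experiment as a random block and 20 with centring. Without 1 replicate or array they numbered 4 to 10. Falls in p300kd cells (30) numbered 35 with the replicate block and 21 to 32 without 1 replicate or array. For the siRNA at 0 h the replicate block gave 1 higher and 1 lower in place of 0. At 8 h the block gave 1 higher and 1 lower, and the random block, centring and log2(intensity + 32) each 1 higher. Over both times the 2 higher became 4 with the replicate block and 4 with the random block, and 0 to 2 without 1 replicate, while the 0 lower became 6 and 3. The interaction gave 0 under each alternative. Among the alternatives, shares of all genes are given above only for the replicate block and, with Dox, for centring. The other counts here cannot be set against all genes. The blocked fits without 1 experiment were chosen after seeing the data. The causes of these changes were not tested. Signal over background limits the 10 dim members, of which Fbxo39 passed a test. It also limits rises that began under that level at 0 h, among them those of Fbxo36, Fbxo48, Trim17 and Trim36.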
